A study of Caenorhabditis elegans with 33 samples.

Results

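Y73B3A.20 (WBGene00022221), H42K12.3 (WBGene00019272) and col-182 (WBGene00000755) are 3 X-linked genes of the 21975 in the table. They were selected on their measured FPKM, because the mean of each was lower in wild-type N2 than in each of the 10 other conditions. Therefore the N2 values are given here as a description with no test. All 3 passed the filter on low values, a mean of at least 1 FPKM over the 33 libraries, which 13309 genes passed, 2061 of them on the X. FPKM is fragments per kilobase of transcript, scaled for depth, so levels of different genes are compared per length.

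Poly(A) RNA was measured in whole L3 hermaphrodites, with 3 libraries for each of 11 conditions in 7 strains. Larvae synchronised at L1 spent 24 hours on plates, either without auxin or with auxin at 4 mM. N2 (labelled WT), dpy-21(e428) and cec-4(ok3124); dpy-21(e428) were grown without auxin only. The cec-4(ok3124) mutant was grown with and without auxin, and so were dpy-27::AID, TIR1; dpy-27::AID; cec-4 and TIR1; dpy-27::AID (the labels write TIR-1). In these last 3 strains DPY-27 carries an auxin-inducible degron and a MYC tag. TIR1 is a plant F-box protein that targets the degron for degradation on auxin, and here it was expressed from the ubiquitous eft-3 promoter. Each library is a pool of larvae, the labels do not say whether replicates were separate cultures, and p-values measure the spread between these libraries. In whole larvae, fewer cells of a type and less RNA per cell cannot be told apart.

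Hermaphrodites carry a pair of X chromosomes and males a single X. The dosage compensation complex binds the hermaphrodite X chromosomes and lowers their transcription. Its condensin contains DPY-27, and its subunit DPY-21 is a histone demethylase that enriches H4K20me1 on the X. CEC-4 is a chromodomain protein of the nuclear periphery that anchors chromatin carrying H3K9 methylation. N2 was the only strain with none of these alleles, and it was sampled without auxin only.

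The genes lie far apart on the X, in coordinates of WBcel235. Y73B3A.20 is at chromosome X, 47690 to 58063, on the plus strand, close to the left end. It is annotated as protein-coding with 2 transcripts and a merged exon length of 1191 bases. H42K12.3, at 1311391 to 1316640 on the plus strand, is also protein-coding, with 3 transcripts and 1846 exonic bases. The third gene lies at 12636153 to 12637056 on the minus strand and is annotated as a pseudogene with 1 transcript of 854 exonic bases. RefSeq names it col-182, a symbol of the collagen family, whose members form the cuticle. The annotation lists no gene that overlaps any of these genes. Whether a near-identical copy elsewhere shares their reads was not tested.

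Y73B3A.20 was nearly undetected in N2 and present in every other library. Its N2 libraries were at 0, 0.61 and 0.99 FPKM, with a mean of 0.532 ± 0.498 (SD, n = 3). The 30 other libraries ran from 3.95 to 25.6 FPKM with a median of 9.998. None of them overlapped the N2 libraries, and the lowest of them stood 1.9 above the highest N2 library on the log2(FPKM + 0.1) scale. All 30 were above 0.

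H42K12.3 showed the same order with more scatter. It was listed at 0 in 2 N2 libraries and at 2.65 FPKM in N2 replicate 2, with a mean of 0.884 ± 1.53 (SD, n = 3). The other libraries ran from 1.94 to 74.2 FPKM with a median of 30.05. Of these 30 libraries, 29 were above all N2 libraries. The exception was TIR1; dpy-27::AID replicate 2, at 1.94 FPKM. A value of exactly 0 can be a failed estimate. Of 5757 genes with a mean of at least 20 FPKM over the other libraries, 30 were listed at 0 in at least 2 of the N2 libraries, 6 of them on the X. In the 10 other conditions the same count ran from 11 to 30, and its X-linked part from 1 to 4.

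The pseudogene col-182 was expressed in N2 but lower than elsewhere. Its N2 libraries were at 1.35, 3.56 and 12.1 FPKM, a mean of 5.66 ± 5.66 (SD, n = 3). The other libraries ran from 14.3 to 109 FPKM with a median of 37.5, and all 30 were above all 3 N2 libraries. The separation was narrow, at 0.24 on the log2(FPKM + 0.1) scale between N2 replicate 3 and the lowest other library. The lowest other condition mean was 30.2 FPKM in cec-4, 5.34 times the N2 mean. The highest, 86.5 FPKM in TIR1; dpy-27::AID; cec-4 with auxin, was 15.3 times the N2 mean.

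**Figure D1:**
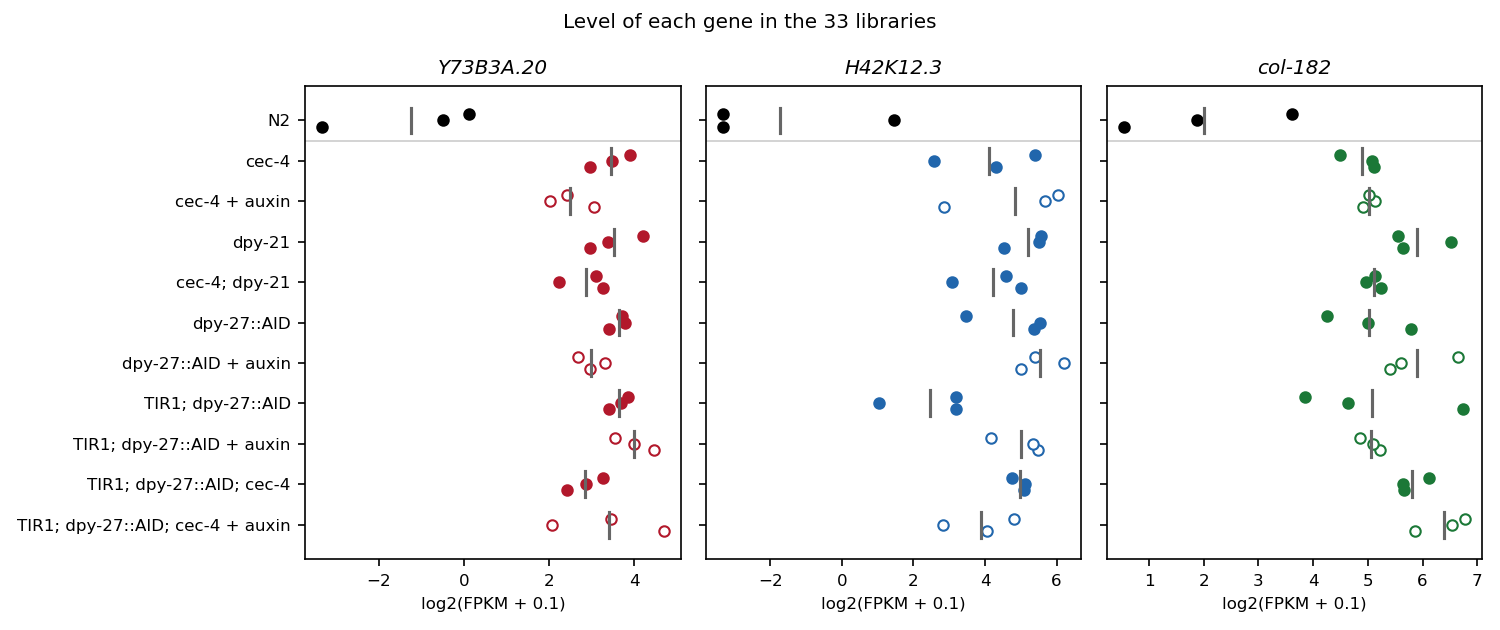
Each panel plots the log2(FPKM + 0.1) of a gene on the horizontal axis for the 3 libraries of each of the 11 conditions, with a bar at the mean. N2 libraries are black and libraries with auxin are open circles. The N2 points lie to the left of the 30 others for Y73B3A.20 and col-182, and N2 replicate 2 lies inside the range of the others for H42K12.3.

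The number of fragments behind several of the low N2 values was small. The table holds no counts, and depth was estimated from the smallest step among the low FPKM of 3742 single-transcript genes of at least 1500 exonic bases. This rough estimate, which Salmon's fractional assignment blurs, gave 11.1 to 13.7 M fragments for N2 and 12.8 to 21.9 M for the other libraries. At that depth the N2 values of Y73B3A.20 stand for at most 0, 8.0 and 16.1 fragments, and those of H42K12.3 for at most 0, 54.1 and 0. The N2 values of col-182 stand for at most 15.1, 33.7 and 141.3 fragments.

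Some N2 libraries also differed from the rest in other measures. N2 replicates 1 and 2 had 10963 and 11711 genes at 1 FPKM or more, below the 11720 to 13093 of the other libraries. N2 replicate 3, with 12409, lay inside that range. The FPKM sums of N2 replicates 1 and 2, at 2.55 M and 2.02 M, lay above the 1.41 M to 1.67 M of the other libraries, and that of N2 replicate 3, at 1.44 M, lay inside this range. Over all tested genes, the lowest correlation between replicates of any condition was a Pearson r of 0.762 on the log2 scale, between N2 libraries. The lowest r in cec-4 was close to it, at 0.7765, so this measure did not set N2 apart. The labelled tissue was checked with lists of defining markers. Summed muscle markers, 4 of 4 tested, reached 2447 to 5730 FPKM in N2 and 2398 to 4320 elsewhere. The neuron markers, 4 of 4 tested, summed to 534.5 to 779.5 FPKM in N2 against 419.9 to 582.6. The intestine markers, 4 of 4 tested, summed to 1885 to 3195 FPKM in N2 against 1348 to 2713. The germline markers, 7 of 8 tested, summed to 50.5 to 199 FPKM in N2 against 82.3 to 250.3. The hypodermis and larval cuticle list, 4 of 5 tested, summed to 677.1 to 1652 FPKM in N2 and 269 to 4855 elsewhere, with elt-3 at 0 in N2. The molt list, 4 of 5 tested, summed to 51.0 to 214.4 FPKM in N2 and 38.9 to 539.8 elsewhere, with mlt-11 at 0 in every library. Sperm markers, 1 of 6 tested, summed to at most 0.50 FPKM in N2, and elsewhere to a median of 0.27 and at most 57.7 FPKM. The male markers her-1 and mab-3 were at 0 in all N2 libraries and summed to at most 5.71 FPKM elsewhere. The part of these differences in the N2 levels of the X-linked genes was not tested.

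Many genes met the same rule, so the rule alone does not set these genes apart. The N2 mean was below that of each other condition in 1857 tested genes (14%), which were 26.2% of the X-linked (539) and 11.7% of the autosomal ones (1318). For comparison, the X-linked share with the lowest mean ran from 1.21% in dpy-21 to 16% in cec-4 and in dpy-27::AID. By the log2 difference between the lowest other mean and the N2 mean, Y73B3A.20, H42K12.3 and col-182 ranked 7, 11 and 15 among the 539 X-linked genes, at 3.22, 2.79 and 2.40. All 3 had an N2 mean more than 4 times below each other condition mean, as did 30 X-linked genes (1.46%). At the edge of the rule, Y73B3A.1 was just inside with 5.48 FPKM in N2 against 5.49, and ipp-5 with 23.96 against 24.01. The genes mff-1 (16.40 against 16.40) and dhhc-14 (21.48 against 21.44) were just outside it.

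**Figure D2:**
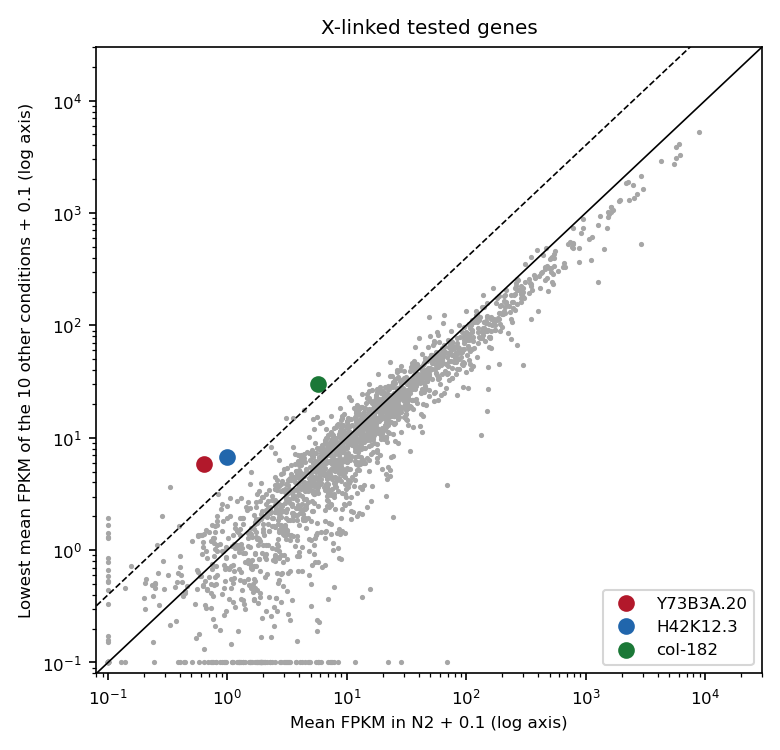
The scatter plots, for the 2061 X-linked tested genes, the mean FPKM in N2 against the lowest mean of the 10 other conditions, both with 0.1 added and on log axes. Points above the solid line met the rule and points above the dashed line had an N2 level more than 4 times below the lowest other mean, with 0.1 added to both. All 3 genes lie above the dashed line.

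A complete separation of libraries was rarer. All 3 N2 libraries were below all 30 others for 21 tested genes (0.158%), 14 of them X-linked (0.679% of X-linked genes) and 7 autosomal (0.0623% of autosomal genes). Y73B3A.20 and col-182 are among the 14, and H42K12.3 is not. The reverse, all N2 libraries above all others, held for 29 genes (0.218%), with 0 on the X (0%). Genes with all libraries of a condition below all others numbered 1 in dpy-27::AID with auxin and 58 in TIR1; dpy-27::AID; cec-4 with auxin. Among the 10 conditions other than N2 these were the lowest and highest counts, and the X-linked counts were 0 to 3. Apart from Y73B3A.20 and col-182, the widest separation on the X was that of F13D2.1, at 0 to 7.07 FPKM in N2 and 11.8 to 32.1 elsewhere. It was followed by W04G3.7, ram-5, C05E11.3 and F21E9.2. On the autosomes lact-8, a gene of a beta-lactamase domain family on chromosome V, had the widest separation, with 0 to 0.087 FPKM in N2 and 1.70 to 22.8 elsewhere. The next were K08C9.5, prg-2, dsb-2 and acs-21. On the log2(FPKM + 0.1) scale the separation of lact-8 was 3.26, wider than the 1.9 of Y73B3A.20.

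**Figure D3:**
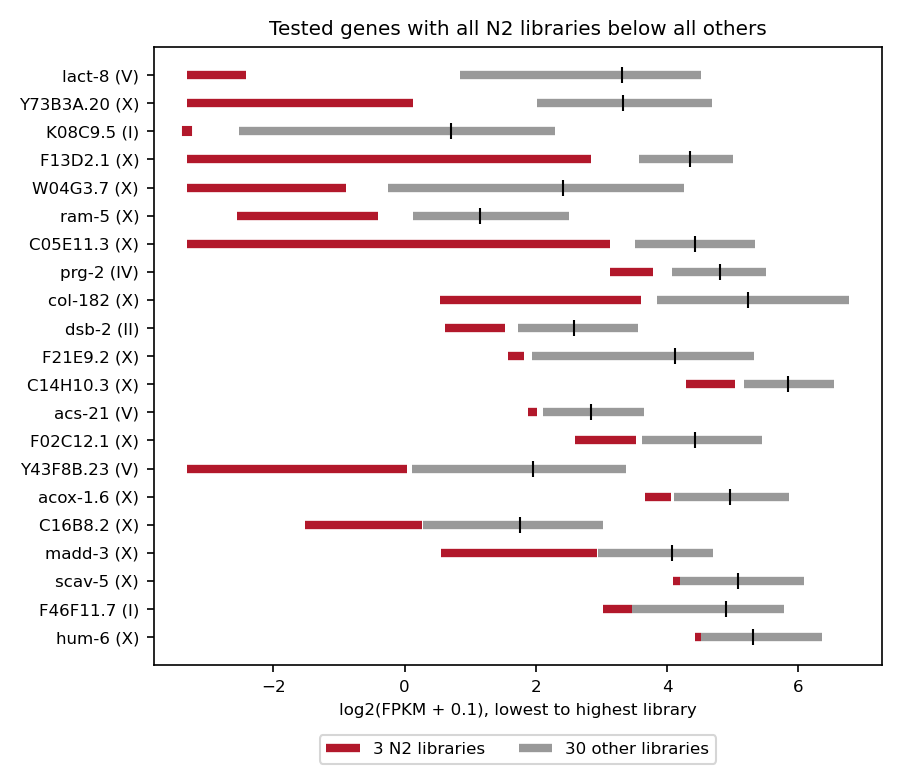
Bars span the lowest to the highest library on the log2(FPKM + 0.1) scale for the 21 tested genes whose 3 N2 libraries (red) lay below all 30 others (grey, with a tick at the median), with the chromosome in brackets. The gap between the bars is widest for lact-8 (3.26) and then for Y73B3A.20 (1.9), and is 0.24 for col-182.

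The neighbours of each gene were then compared, 5 in the table on each side. Of these 30 neighbours 22 were tested. Of the 22, 11 had their lowest mean in N2, namely 5 around Y73B3A.20, 5 around H42K12.3 and 1 around col-182. The share over all X-linked tested genes was 26.2%. Around Y73B3A.20, 9 of the 10 neighbours are pseudogenes. Its closest neighbour, the protein-coding Y73B3A.1 at 757 bases, had an N2 mean of 5.48 FPKM against 5.49 to 10.1. On the other side Y73B3A.18, a pseudogene at 1303 bases, was at 19.4 FPKM in N2, inside the 11.5 to 52.4 of the other means. None of the neighbours of Y73B3A.20 had all N2 libraries below all others.

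Beside H42K12.3, F21E9.2 at 11332 bases was the only one of the 30 neighbours whose N2 libraries all lay below all others. It was at 2.88 to 3.44 FPKM in N2 and at 3.76 to 40.2 elsewhere. The next gene outward, ttr-37 of the transthyretin-related family, had an N2 mean of 0.103 FPKM against 0.41 to 16.8. Both lie on the opposite strand from H42K12.3. The dopamine receptor gene dop-4, on the other side, was at 1.24 FPKM against 1.81 to 4.49, while inso-1 at 1887 bases was at 6.96 FPKM in N2, inside the 1.66 to 14.6 of the other means. Next to col-182, ivns-1 at 1799 bases had an N2 mean of 7.99 FPKM against 8.61 to 37.8. R09A8.5, at 1400 bases on the other side, was at 31.98 FPKM in N2 and 25.6 to 54.5 elsewhere, so the low N2 level of col-182 was not shared by that neighbour.

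**Figure D4:**
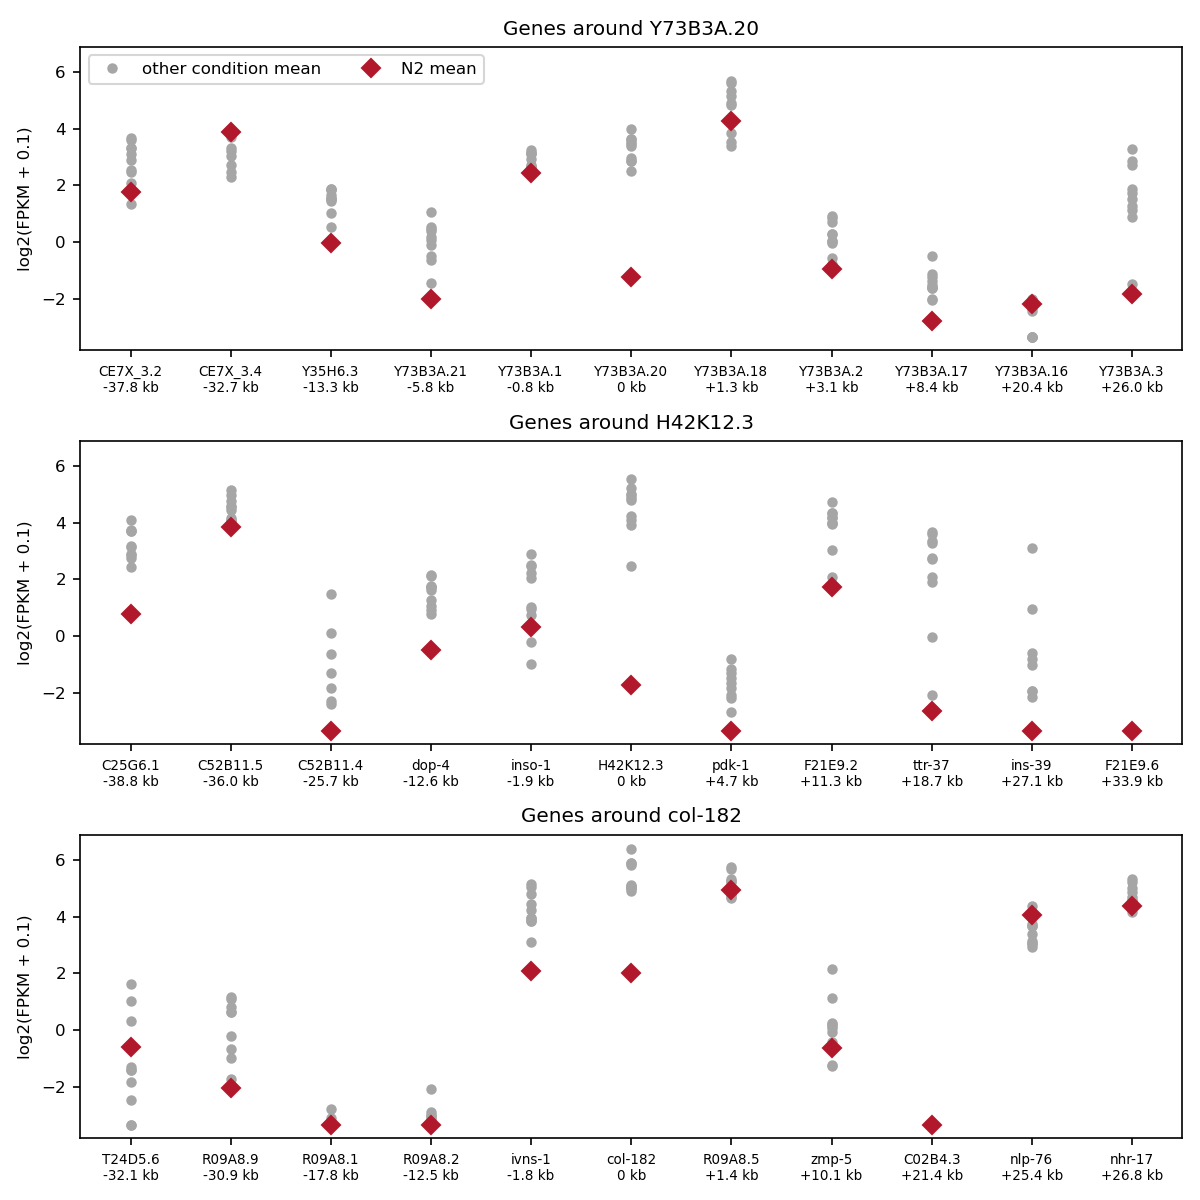
Each panel plots, for a gene and 5 neighbours on each side in chromosome order, the N2 mean (red) and the means of the 10 other conditions (grey) of log2(FPKM + 0.1), with the distance in kilobases from the gene in the centre. The N2 mean lies clear of the others at each centre gene, while at Y73B3A.18 and R09A8.5 it lies inside their range.

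The 10 conditions other than N2 were then compared with one another. The choice of genes did not rank those conditions, but the fit shared 1 estimate of the spread over all 33 libraries, N2 included, and the N2 libraries of these genes were widely spread on the log2 scale. An F-test in limma found no difference that passed an adjusted p of 0.05 for any of the 3 genes, beside 7.02% of tested genes called. Y73B3A.20 had F = 1.06 with an adjusted p of 0.692. The values were F = 1.51 with an adjusted p of 0.486 for H42K12.3, and F = 1.58 with an adjusted p of 0.460 for col-182. With N2 left out of the fit, F rose to 1.86 for Y73B3A.20 (adjusted p 0.309 in limma), 2.301 for H42K12.3 (adjusted p 0.202) and 2.27 for col-182 (adjusted p 0.208), so none passed. Single libraries moved F as well, to 1.85 for Y73B3A.20 without N2 replicate 1, to 2.398 for H42K12.3 without N2 replicate 2 and to 2.92 for col-182 without TIR1; dpy-27::AID replicate 1. Of the 45 pairs of these conditions, the libraries did not overlap in 12 pairs (26.7%) for Y73B3A.20, in 6 pairs (13.3%) for H42K12.3 and in 17 pairs (37.8%) for col-182. Over all tested genes the share was 17.5%.

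The order of the condition means differed between the genes. From low to high, Y73B3A.20 ran through N2 (0.532 FPKM), cec-4 with auxin (5.79), TIR1; dpy-27::AID; cec-4 (7.31), cec-4; dpy-21 (7.56) and dpy-27::AID with auxin (7.92). It went on through cec-4 (11.2), dpy-21 (12.1), dpy-27::AID (12.4), TIR1; dpy-27::AID (12.5), TIR1; dpy-27::AID; cec-4 with auxin (13.5) and TIR1; dpy-27::AID with auxin (16.3). Apart from N2, each condition's libraries overlapped those of the next in this order. For H42K12.3 the lowest of the 10 was TIR1; dpy-27::AID (6.69 FPKM) and the highest dpy-27::AID with auxin (49.4 FPKM). For col-182 the means ran from 30.2 FPKM in cec-4 to 86.5 FPKM in TIR1; dpy-27::AID; cec-4 with auxin.

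In the dpy-21 mutant, without auxin, all libraries were above those of N2 for each gene. Y73B3A.20 was at 7.69, 10.3 and 18.4 FPKM, H42K12.3 at 23.1, 45.8 and 47.5 FPKM, and col-182 at 50.0, 91.4 and 46.8 FPKM. The genes were chosen for a low N2 mean, which favours this order, and the order was not particular to dpy-21. Of the 30 libraries other than N2, all lay above N2 for Y73B3A.20 and col-182, and 29 for H42K12.3.

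The first comparison without N2 asked whether depleting DPY-27 changed these levels. The paper reports that TIR1; dpy-27::AID had somewhat reduced DPY-27 staining and a small X derepression relative to wild type even before auxin. In TIR1; dpy-27::AID, H42K12.3 was at 9.10, 1.94 and 9.03 FPKM on plain plates and at 44.7, 40.6 and 17.7 FPKM with it, without overlap. The log2 difference was 2.52 (SE 1.01, 95% interval 0.44 to 4.61), with an adjusted p of 0.307 in limma, so it did not pass. The untreated group had the lowest H42K12.3 mean after N2, and the mean with auxin, 34.35 FPKM, was near the 32.91 FPKM of untreated dpy-27::AID. Of the 3 genes 0 were called, beside 0.413% of tested genes, and 1 had an unadjusted p under 0.05. Y73B3A.20 was at 10.5, 12.7 and 14.4 FPKM without auxin and 21.7, 15.7 and 11.5 FPKM with it, a log2 difference of 0.34 (95% interval -0.97 to 1.65). col-182 was at 107, 24.8 and 14.3 FPKM without auxin and 37.3, 33.9 and 28.9 FPKM with it, a log2 difference of -0.02 (95% interval -1.24 to 1.196). The sign of the col-182 difference depended on single libraries: it was 0.81 without TIR1; dpy-27::AID replicate 1 and -0.64 without replicate 3. The median log2 difference of X-linked genes in this comparison was 0.34.

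When cec-4 was mutated as well, none of the 3 genes passed the test, beside 6.4% of tested genes, and 0 had an unadjusted p under 0.05. In TIR1; dpy-27::AID; cec-4, H42K12.3 was at 33.9, 34.6 and 26.9 FPKM without auxin and 16.7, 6.94 and 28.2 FPKM with it, a log2 difference of -1.08 (95% interval -3.17 to 1.002). Y73B3A.20 was at 5.27, 7.16 and 9.51 FPKM without auxin and 25.6, 4.09 and 10.9 FPKM with it. Its groups overlapped, and the log2 difference was 0.55 (95% interval -0.76 to 1.86) but -0.09 without replicate 1 of the auxin group. col-182 was at 50.5, 49.9 and 69.7 FPKM without auxin and 57.8, 92.5 and 109 FPKM with it, a log2 difference of 0.58 (95% interval -0.64 to 1.80). The median over X-linked genes was 0.67.

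The auxin responses with cec-4 mutated and with cec-4 intact were compared with each other, a test chosen after the values were seen. For H42K12.3 they differed by -3.61 on the log2 scale (SE 1.43, 95% interval -6.56 to -0.66), with an adjusted p of 0.215 in limma. The difference was 0.21 for Y73B3A.20 (95% interval -1.64 to 2.06) and 0.60 for col-182 (95% interval -1.12 to 2.32). Both signs turned when 1 library was left out, to -0.43 for Y73B3A.20 without TIR1; dpy-27::AID; cec-4 with auxin replicate 1 and to -0.23 for col-182 without TIR1; dpy-27::AID replicate 1. None of the 3 passed, beside 1.44% of tested genes. The untreated levels of H42K12.3 did not overlap between these strains, at 1.94 to 9.10 FPKM with cec-4 intact and 26.9 to 34.6 FPKM with cec-4 mutated, a difference that was not tested. Over all tested genes, 17.5% of the pairs of conditions other than N2 did not overlap, and for H42K12.3 13.3% did not.

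Auxin was also given to strains in which DPY-27 is not degraded. In dpy-27::AID without TIR1 no gene of the 3 passed (0% of tested genes called by limma, with 673 at an unadjusted p under 0.05). Y73B3A.20 was at 10.5, 13.7 and 13.0 FPKM without auxin and 7.71, 9.75 and 6.29 FPKM with it. These groups did not overlap, as in 17.5% of the pairs of conditions other than N2 over all tested genes. The log2 difference was -0.65 (95% interval -1.96 to 0.66). H42K12.3 was at 41.2, 46.7 and 10.9 FPKM without auxin and 31.9, 74.2 and 42.1 FPKM with it, a log2 difference of 0.75 (95% interval -1.34 to 2.83). col-182 was at 55.3, 31.8 and 19.1 FPKM without auxin and 42.5, 48.7 and 100.6 FPKM with it, a log2 difference of 0.87 (95% interval -0.34 to 2.09).

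In cec-4 without a degron, again 0 of 3 genes passed, beside 0.00751% of tested genes. Y73B3A.20 was at 7.66, 11.1 and 14.8 FPKM without auxin and 8.19, 3.95 and 5.22 FPKM with it, a log2 difference of -0.95 (95% interval -2.26 to 0.36). H42K12.3 was at 19.9, 5.90 and 42.0 FPKM without auxin and 7.09, 50.6 and 66.1 FPKM with it, a log2 difference of 0.75 (95% interval -1.33 to 2.84). Both groups spanned a wide range and overlapped, and the difference was -0.005 without cec-4 replicate 2 and 1.76 without replicate 1 of the auxin group. col-182 was at 34.7, 33.7 and 22.3 FPKM without auxin and 29.8, 34.9 and 32.3 FPKM with it, a log2 difference of 0.12 (95% interval -1.10 to 1.34) that was -0.08 without cec-4 replicate 3.

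The mutation of dpy-21 was compared with its absence in the cec-4 background, both without auxin and sharing the cec-4 libraries with the comparison above. Here 0 of 3 genes passed, beside 1.56% of tested genes. In cec-4; dpy-21, Y73B3A.20 was at 9.53, 4.63 and 8.53 FPKM, a log2 difference of -0.57 from cec-4 (95% interval -1.88 to 0.74). H42K12.3, at 32.2, 8.38 and 24.2 FPKM, differed by 0.13 (95% interval -1.95 to 2.22), and by -0.63 without cec-4 replicate 2 and 0.78 without cec-4 replicate 3. col-182, at 37.7, 31.2 and 35.2 FPKM, differed by 0.22 (95% interval -0.997 to 1.44). The groups of all 3 genes overlapped. The median difference of X-linked genes was 0.61. The intervals of these genes include the spread of the N2 libraries, so whether a gene departed from this median was not tested.

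**Figure D5:**
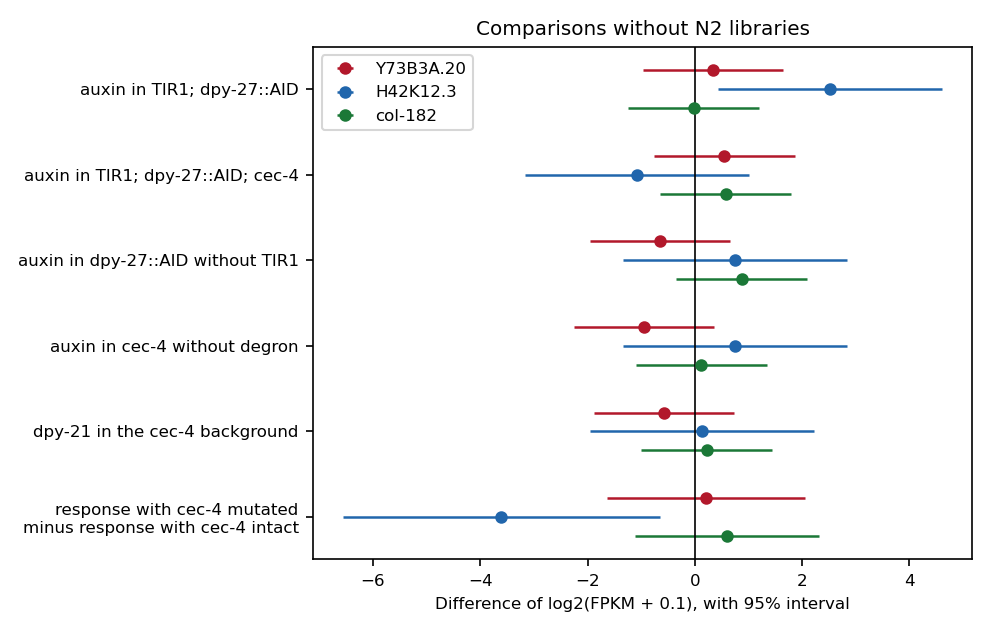
Points are the differences of log2(FPKM + 0.1) for the 3 genes in the 5 comparisons without N2 and in the difference between the auxin responses, with 95% intervals from limma. Only the H42K12.3 intervals for auxin in TIR1; dpy-27::AID (0.44 to 4.61) and for the difference between responses (-6.56 to -0.66) leave out 0, and neither passed after adjustment.

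The labels of the cec-4 strains were checked with the cec-4 transcript, which was listed at 0 in 11 of 15 libraries labelled cec-4, with a highest value of 8.99 FPKM. Of the 4 libraries above 0, 3 belonged to TIR1; dpy-27::AID; cec-4 (2 untreated, 1 with auxin), the groups behind the auxin response called cec-4 mutated above, and 1 was cec-4 with auxin. In the 18 other libraries it was at 0 in 2, with a median of 8.10 FPKM. The 10 genes of the dosage compensation complex, namely dpy-21, dpy-26, dpy-27, dpy-28, dpy-30, capg-1, mix-1, sdc-1, sdc-3 and sdc-2, were all tested. Over the 5 comparisons 1 call was made: sdc-2, which encodes the protein that first recruits the complex to the X, was higher with auxin in TIR1; dpy-27::AID; cec-4 by 1.29 on the log2 scale (adjusted p 0.0129 in limma). In that comparison 6.4% of all tested genes were called. The call was lost when only the conditions compared were fitted.

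Across the 30 libraries other than N2 the 3 genes did not share a pattern. Pearson's r of log2(FPKM + 0.1) was -0.0039 between Y73B3A.20 and H42K12.3, -0.21 between Y73B3A.20 and col-182, and 0.22 between H42K12.3 and col-182. These values are descriptions, and the libraries share conditions. The gene most like Y73B3A.20 by this measure was F18A11.3 (r = 0.69, chromosome II), followed by mrpl-41, which encodes a mitochondrial ribosomal protein, F53E10.6, C06H2.2 and pabp-2. For all 5 the N2 mean ranked 6 or higher of 11 from the lowest, so none had its lowest level in N2.

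H42K12.3 was most like ima-2, an importin alpha gene on chromosome I (r = 0.82), whose N2 mean of 60.9 FPKM lay inside the 43.4 to 83.0 of the other conditions. T03G6.1, F58H10.1, T20F5.4 and cpl-1, a cathepsin L protease gene, came next, and T03G6.1 was the one X-linked gene of these 5. None had its lowest mean in N2. For col-182, 4 of the 5 most alike genes were X-linked, with gmap-2 the closest (r = 0.84). Of the 13309 tested genes, 2061 were X-linked. The N2 mean of gmap-2 was 26.3 FPKM against 38.0 to 88.4 in the other conditions, so it too was lowest in N2. C49F8.3 (139 FPKM against 186 to 372) and F59F5.7 (6.47 FPKM against 9.02 to 20.7) were lowest in N2 as well, as were 26.2% of X-linked tested genes. The others were R02E4.3 and nlp-30, a neuropeptide-like gene on chromosome V, in which the N2 mean was the second lowest.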

How the data were processed

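Poly(A) libraries of whole L3 larvae were made with a directional kit in a sequencing core. Per the labels, reads were processed with cutadapt 2.3, FastQC 0.11.8, Salmon 1.9.0 and DESeq2 1.42.0 on WBcel235. The authors deposited FPKM values for 21975 genes. How FPKM was computed from the Salmon output, and Salmon's strand setting, are not given in the sources used here. Reads and counts were not analysed here. All 21975 identifiers matched the Ensembl annotation of WBcel235, and the symbol col-182 came from RefSeq.

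Limma 3.58.1 (R 4.3.3) was fitted to log2(FPKM + 0.1) in all 33 libraries, with 11 condition means, a trend in the prior variance and no replicate block, for genes with a mean of at least 1 FPKM. P-values were adjusted by Benjamini-Hochberg over the 13309 genes within each of 7 tests, at a threshold of 0.05. The pseudocount lessens the differences of low values. Python 3.11.15, numpy 2.4.6, pandas 2.3.3 and matplotlib 3.10.9 were used. The procedure was also run on simulated data that gave each gene the same spread in all conditions. Those data held no condition as scattered as N2 was for these genes, so the run does not cover their case.

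The 3 genes and all lists were chosen with earlier results of these data known. The genes named were the 3 genes, 5 neighbours on each side, the 5 most alike by Pearson's r over the 30 libraries other than N2, the 5 X-linked and 5 autosomal genes with the widest gap above N2, the genes at the edge of the rule, the dosage compensation genes and cec-4. Results were recomputed with each library left out in turn, with pseudocounts of 0.01 and 1, with no filter or one at 5 FPKM, with equal FPKM sums or median-of-ratios scaling, with only the compared conditions in the fit, and with the replicate number as a block. Condition medians were added after the data had been seen. Copies with near-identical sequence were not examined, and no sequence was used.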

Additional observations from a re-analysis of the deposited data

How the results depend on the processing

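The counts of these genes that passed a test (0 of 3 in each of 7 tests) were the same under all alternatives run. The count of those lowest in N2 stayed at 3 of 3, but the genes were chosen by this rule, so it is no separate support. The pseudocount and the filter could not change that count. The replicate block and the fit of only the compared conditions were not run for it. The gap between N2 and the lowest other condition, taken here between means of log2(FPKM + 0.1), was 3.73 for Y73B3A.20, 4.201 for H42K12.3 and 2.89 for col-182. It depended on the pseudocount, the scaling and the use of condition medians, from 2.16 to 4.92 for Y73B3A.20, 2.12 to 6.51 for H42K12.3 and 2.56 to 3.22 for col-182 over the settings that kept all libraries. Leaving out 1 library gave 2.68 to 4.40, 3.40 to 5.80 and 2.16 to 3.69, with the lowest values without N2 replicate 1. For H42K12.3 the adjusted p of the auxin comparison in TIR1; dpy-27::AID ran from 0.167 to 0.721 over the alternatives, and that of the difference between responses from 0.0874 to 0.3997.

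Of the dosage compensation genes 1 was called for auxin on TIR1; dpy-27::AID; cec-4, but 0 when only the conditions compared were fitted. Fitting only those conditions called 29 of all tested genes in place of 55 with auxin in TIR1; dpy-27::AID, 90 in place of 208 for dpy-21 in the cec-4 background, and 0 in place of 1 with auxin in cec-4. With no filter, 2 genes in place of 0 were called with auxin in dpy-27::AID. Leaving out 1 library moved the count of called genes with auxin in TIR1; dpy-27::AID from 5 without replicate 1 of the auxin group to 138 without replicate 3 of the untreated group. The ranges were 634 to 1320 for the F-test, 359 to 1083 for auxin on TIR1; dpy-27::AID; cec-4, 0 to 28 for auxin on dpy-27::AID, 0 to 5 for auxin on cec-4, 52 to 311 for dpy-21 in the cec-4 background and 63 to 320 for the difference between responses.

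Replicates with the same number did not deviate together beyond r = 0.14 in any comparison (lowest r = -0.043), so the numbers were not taken as pairs. With the replicate block 0 of the 3 genes passed in each test, and the block changed no call among these and the dosage compensation genes. Over all tested genes it moved the counts of calls by less than 1.5 times. The small number of fragments behind several of the N2 values, the absence of N2 libraries with auxin and 3 libraries per condition limit what these levels can show.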
